A study of Mus musculus with 7 samples.

Results

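The 10 genes described here mark where a cell stands between the epithelial and the mesenchymal state, and they were picked by symbol from the 38026 genes of a bulk RNA-seq table of mouse pancreatic ductal adenocarcinoma (PDA) tumors. They are Cdh1, Epcam and Esrp1 of the epithelial side, Vim and Cdh2 of the mesenchymal side, and the transcription factors Snai1, Snai2, Twist1, Zeb1 and Zeb2. The cancer cells were of line 1242, grown from a pancreatic tumor of a mouse whose engineered alleles are switched on by Pdx1-Cre in pancreatic cells. They had been transduced with a lentivirus for Cas9 and either a scrambled guide RNA (sgScramble, n = 4 tumors) or a Krt19-directed guide (sgKrt19, n = 3 tumors). C57BL/6 mice, bought at 6 weeks of age and housed for 2 weeks before the experiment, received the cells under the skin. Tumors were taken 2 weeks after inoculation, and no other treatment of these mice is named in the sources used here. Both groups share the mouse strain, Cas9 and the engineered alleles of the parent line. The study used 3 Krt19 guides and made both polyclonal lines and single-cell clones, and which of these formed the sequenced tumors is not given in the sources used here. A difference between the groups cannot be told apart from a difference between 2 cell lines or clones. KRT19 is a keratin of simple epithelia that, in the question of the study, joins with CXCL12, a chemokine, on the surface of carcinoma cells. The tumors were sequenced to compare gene expression with and without its editing.

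Epithelial cells hold to each other through E-cadherin, the product of Cdh1, which joins across cell borders and is tied to the actin cytoskeleton by catenins. In an epithelial-mesenchymal transition (EMT), zinc finger factors of the SNAIL and ZEB families bind E-box motifs in the promoters of epithelial genes and silence them, and the helix-loop-helix factor TWIST1 acts with them. N-cadherin and vimentin then gain in level, and the splicing factor ESRP1, which sets epithelial forms of many transcripts, is lost. Carcinoma cells often sit between these states, and fibroblasts and other stromal cells of a tumor express mesenchymal genes on their own account.

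Values are normalized read counts, that is reads per gene divided by a size factor for each library, and ± gives the SD between the tumors of 1 group. Library depth was 40781199 to 44972100 reads. Krt19 itself, the edited gene, fell from 23053 ± 4392 (n = 4) to 2012 ± 434 (n = 3), or −3.52 on the log2 scale (adjusted p = 1.74e-05 by limma), which fits the labels. Keratins of simple epithelium were abundant in every tumor, Krt8 at 46646 or more and Krt18 at 39289 or more. Of the skin keratins, Krt5 stayed at 14.7 or less and Krt14 at 70.3 or less.

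Promoter windows of the members were searched for the motif to which the SNAIL and ZEB factors bind. The E-box searched was CACCTG, with its reverse complement CAGGTG, in the 250 bases before the annotated start, as given by RefSeq for GRCm38.p6. Of the 10 members, 5 had a window in the table used, and 17.2% of all 32851 promoter windows hold the box at least once. Snai1 and Twist1 are shown because both factors fell in the sgKrt19 tumors, and Epcam because it is the epithelial member of the 5. Of the 8 windows of these 5 genes, 2 hold a box, those of Epcam and Snai1. The window of Vim and all 4 windows of Zeb2, which fell as well, hold none and are not printed. The windows lie at chr17:87635729-87635978 (Epcam), chr2:167537945-167538194 (Snai1) and chr12:33957421-33957670 (Twist1), all on the plus strand and written 5′ to 3′, with E-boxes in capitals.
Epcam: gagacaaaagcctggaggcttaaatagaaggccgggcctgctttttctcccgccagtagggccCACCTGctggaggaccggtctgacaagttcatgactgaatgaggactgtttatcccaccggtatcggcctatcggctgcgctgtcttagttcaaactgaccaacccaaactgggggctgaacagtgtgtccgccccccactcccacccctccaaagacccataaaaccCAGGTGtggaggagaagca
Snai1: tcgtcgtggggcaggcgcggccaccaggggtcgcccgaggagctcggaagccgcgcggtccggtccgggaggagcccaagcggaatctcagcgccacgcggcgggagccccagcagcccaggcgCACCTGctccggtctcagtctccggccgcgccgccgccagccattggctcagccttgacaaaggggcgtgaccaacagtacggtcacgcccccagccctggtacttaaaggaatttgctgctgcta
Twist1: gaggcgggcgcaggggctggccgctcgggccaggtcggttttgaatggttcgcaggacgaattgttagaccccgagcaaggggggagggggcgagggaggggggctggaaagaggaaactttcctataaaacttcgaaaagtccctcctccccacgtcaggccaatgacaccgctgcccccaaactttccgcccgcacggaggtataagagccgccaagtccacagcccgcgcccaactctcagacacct
Epcam holds 2 boxes, at 187 and 19 bases before the start, and only 2.06% of all windows hold 2 or more. Snai1 holds 1 box, at 126 bases before the start, and Twist1 holds none in this window. A match of letters is not a measurement of binding.

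Among the 10 members, limma called 6 at an adjusted p under 0.05, 1 higher and 5 lower in sgKrt19 tumors. Over all 21322 genes tested it called 34.0%, with 17.9% higher and 16.0% lower. All 10 members passed the filter on low values. Cdh1 rose, and Twist1, Cdh2, Zeb2, Snai1 and Snai2 fell. Vim, Zeb1, Epcam and Esrp1 did not pass the test. The median log2 fold change of the 10 was −0.72, against 0.01 over all genes tested. Tumors of the 2 groups were fully separate in the values of 7 members, which are the 6 called ones and Vim, and 41.1% of all tested genes did not overlap either. Because RNA came from whole tumors, fewer cells of a type and less RNA per cell cannot be told apart.

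**Figure D1:**
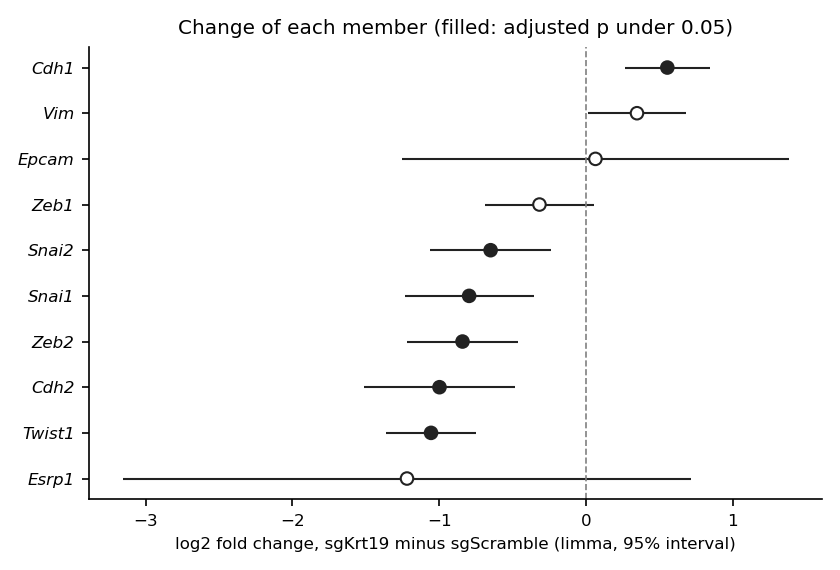
Log2 fold change of each member (x axis, sgKrt19 minus sgScramble, limma on log2(value + 1)), with lines for 95% intervals and filled points for an adjusted p under 0.05. Cdh1 lies above 0 at 0.55, the 5 filled points below 0 run from −0.65 (Snai2) to −1.06 (Twist1), and the widest intervals are those of Esrp1 and Epcam.

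To set levels of different genes side by side, counts were scaled to the length of the merged exons and to library depth (RPKM), and on this scale the members spanned a wide range. In sgScramble tumors Vim stood at 337 ± 19.6 and Cdh1 at 142 ± 12.2, so that the leading markers of both states were abundant in the same tumors. Twist1 followed at 16.2 ± 0.494, Epcam at 10.3 ± 6.85 and Cdh2 at 7.89 ± 1.71. Zeb1 stood at 3.36 ± 0.851, Snai1 at 2.44 ± 0.567, Snai2 at 2.27 ± 0.142, Zeb2 at 1.39 ± 0.389 and Esrp1 at 0.435 ± 0.344, all on the same scale. Neighbors in this order that lie within an SD of each other are Twist1 and Epcam, Epcam and Cdh2, and Snai1 and Snai2. In sgKrt19 tumors, on this scale, Vim stood at 370 ± 41.2, Cdh1 at 179 ± 10.2, Epcam at 8.83 ± 4.81, Twist1 at 6.75 ± 0.941 and Cdh2 at 3.44 ± 0.980, followed by Zeb1 at 2.27 ± 0.170, Snai2 at 1.27 ± 0.371, Snai1 at 1.19 ± 0.137 and Zeb2 at 0.653 ± 0.0668. Esrp1 was again the lowest at 0.234 ± 0.291.

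Cdh1 encodes E-cadherin and lies on chromosome 8 at 106603351 to 106670246 (GRCm38, plus strand). Its normalized read counts were 24121, 26890, 25805 and 27150 in sgScramble tumors 1 to 4, and 42053, 38286 and 34406 in sgKrt19 tumors 5, 6 and 8. Every sgKrt19 tumor was above every sgScramble tumor, and the control tumors lay close together. The means were 25991 ± 1376 (n = 4) and 38248 ± 3824 (n = 3), and Cdh1 rose by 0.55 on the log2 scale (SE 0.131, 95% interval 0.26 to 0.84, adjusted p = 0.0101 by limma). With library size as the only scaling, where the median of all tested genes moves to −0.21, the log2 fold change of Cdh1 was 0.34 and was still called.

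Epcam encodes a cell surface adhesion protein of epithelia and lies on chromosome 17 at 87635979 to 87651129 (plus strand). Its counts were 1273, 376, 1588 and 402 in the sgScramble tumors, and 1247, 1169 and 322 in the sgKrt19 tumors. Both groups hold high and low tumors, and their ranges overlap almost in full. The means were 910 ± 615 and 913 ± 513, a log2 difference of 0.06 (SE 0.592, 95% interval −1.25 to 1.38, adjusted p = 0.943 by limma). An interval this wide leaves room for a doubling in either direction, and the sign of the fold change turned with the scaling (−0.15 with library size only).

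Esrp1 encodes an RNA-binding protein of epithelial cells that guides alternative splicing, and lies on chromosome 4 at 11331933 to 11386783 (minus strand). It was the scarcest member, with counts of 134, 44.5, 225 and 39.9 in the sgScramble tumors and 33.5, 158 and 8.40 in the sgKrt19 tumors. The lowest of these rests on 8 reads, and the groups overlap. The log2 fold change was −1.22 (SE 0.872, 95% interval −3.16 to 0.72, adjusted p = 0.296 by limma), and it ranged from −2.27 to −0.23 as 1 library at a time was left out. On recovered reads it was smaller, −0.735 by edgeR and −0.742 by DESeq2, and was not called either. Esrp2, a close relative, stood at 1685 ± 135 and 1507 ± 265 and was not called (log2 fold change −0.17, adjusted p = 0.339).

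Vim encodes vimentin, the intermediate filament protein of mesenchymal cells, and lies on chromosome 2 at 13573927 to 13582826 (plus strand). Its counts were 63957, 69080, 60491 and 62253 in the sgScramble tumors and 79906, 76873 and 87341 in the sgKrt19 tumors. All sgKrt19 tumors were above all sgScramble tumors. The means were 63945 ± 3704 and 81373 ± 5386, a log2 difference of 0.35 (SE 0.150, 95% interval 0.01 to 0.68) that did not pass the threshold over all genes (adjusted p = 0.0972 by limma). The call depended on the model: the adjusted p was 0.00618 by DESeq2 on recovered reads and 0.0495 by limma without a trend, whereas under scaling by library size alone the log2 fold change was 0.13 (adjusted p = 0.443).

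Cdh2 encodes N-cadherin, the cadherin of mesenchymal and neural cells, and lies on chromosome 18 at 16588877 to 16809246 (minus strand). Its counts were 2156, 3020, 2067 and 2907 in the sgScramble tumors and 1792, 1261 and 867 in the sgKrt19 tumors. The groups did not overlap, although the gap between the lowest control, 2067, and the highest sgKrt19 tumor, 1792, was small. The mean fell from 2537 ± 495 to 1307 ± 464, which is −0.998 on the log2 scale (SE 0.231, adjusted p = 0.00914 by limma). Cdh1 and Cdh2 thus moved in opposite directions while Vim, the other mesenchymal structural gene, was higher in every sgKrt19 tumor than in every control.

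**Figure D2:**
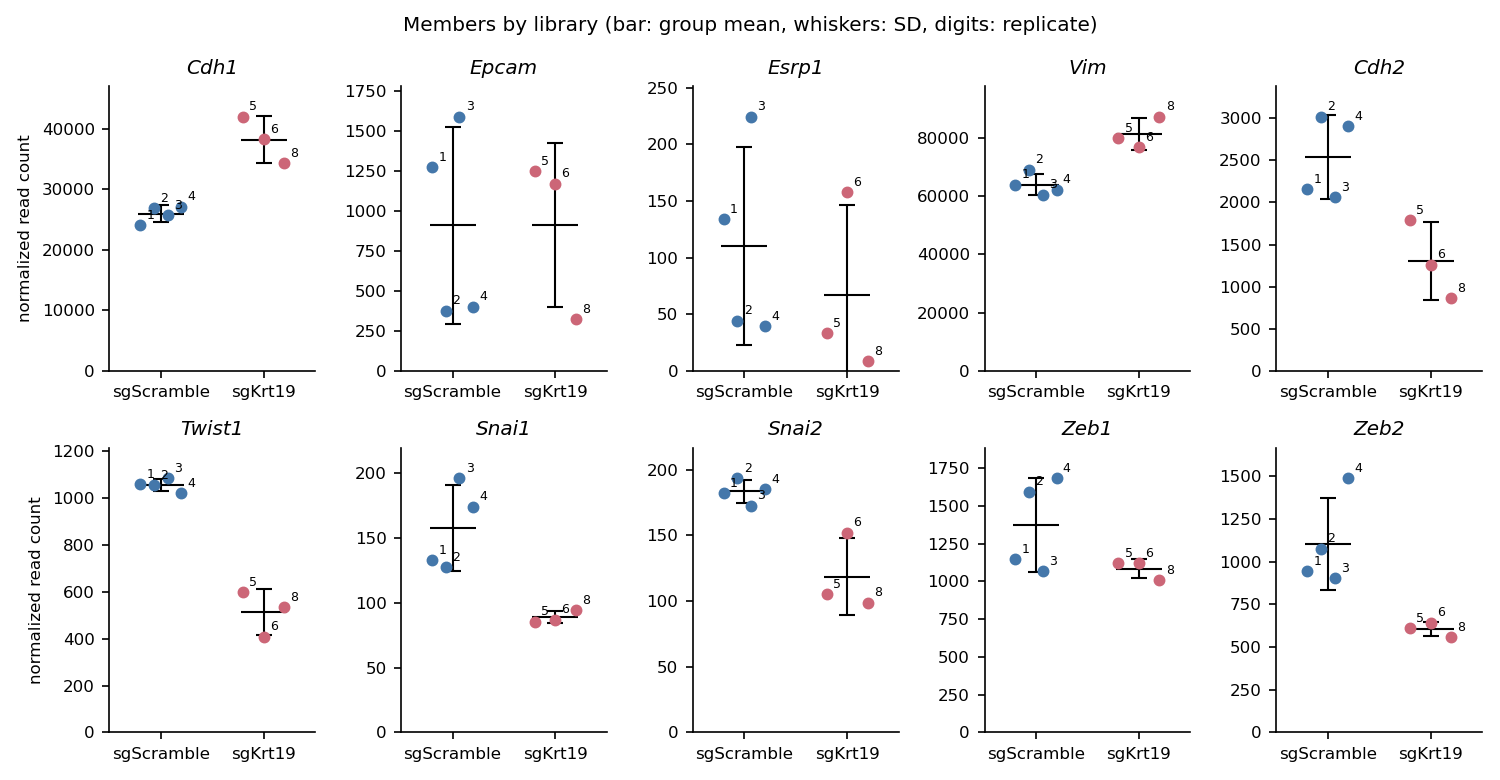
Normalized read count (y axis, from 0) of each member in the 4 sgScramble and 3 sgKrt19 tumors, with digits for the replicate, a bar for the group mean and whiskers for the SD. Cdh1 and Vim are higher in every sgKrt19 tumor, Cdh2, Twist1, Snai1, Snai2 and Zeb2 are lower in every one, and Epcam, Esrp1 and Zeb1 overlap. The lower whisker of Esrp1 in sgKrt19 tumors runs below 0 and ends at the axis.

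Twist1, a helix-loop-helix factor of mesoderm and neural crest, lies on chromosome 12 at 33957671 to 33959829 (plus strand). Its counts were 1058, 1056, 1085 and 1022 in the sgScramble tumors and 599, 408 and 533 in the sgKrt19 tumors. The controls differed by very little from each other, with an SD of 0.04 on the log2 scale, and 1.13% of tested genes had a smaller one. The mean fell from 1055 ± 25.8 to 513 ± 96.9, which is −1.06 on the log2 scale (SE 0.138, adjusted p = 0.000476 by limma). Its relative Twist2 stood at 222 ± 17.5 and 196 ± 55.5 and was not called (log2 fold change −0.22, adjusted p = 0.408).

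Snai1, the zinc finger repressor SNAIL, lies on chromosome 2 at 167538195 to 167542814 (plus strand). Its counts were 133, 127, 196 and 174 in the sgScramble tumors and 85.5, 87.0 and 94.5 in the sgKrt19 tumors, with no overlap. The mean fell from 158 ± 33.2 to 89.0 ± 4.81, which is −0.80 on the log2 scale (SE 0.198, adjusted p = 0.0128 by limma). Snai2, which encodes the related repressor SLUG, lies on chromosome 16 at 14705852 to 14709385 (plus strand). Its counts were 182, 194, 173 and 185 in the sgScramble tumors and 105, 152 and 98.7 in the sgKrt19 tumors. The mean fell from 183 ± 8.71 to 119 ± 29.1, which is −0.65 on the log2 scale (SE 0.185, adjusted p = 0.0223 by limma). This was the least firm of the 6 calls, since the adjusted p was 0.0634 without sgScramble 2, 0.0515 without sgScramble 4, 0.0721 without sgKrt19 5 and 0.0757 without sgKrt19 8. The third SNAIL gene, Snai3, stood at 47.8 ± 12.0 and 79.4 ± 18.8 and was not called (adjusted p = 0.0630).

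Zeb1 and Zeb2 encode paired zinc finger and homeodomain repressors, of which Zeb2 was called and Zeb1 was not, and their ratio is given with the other ratios. Zeb2 lies on chromosome 2 at 44983632 to 45117395 (minus strand), with counts of 946, 1076, 903 and 1489 in the sgScramble tumors and 610, 643 and 560 in the sgKrt19 tumors. The mean fell from 1104 ± 267 to 604 ± 42.0, which is −0.84 on the log2 scale (SE 0.170, adjusted p = 0.00472 by limma), and no tumor overlapped. Zeb1 lies on chromosome 18 at 5591860 to 5775467 (plus strand), with counts of 1149, 1596, 1068 and 1685 in the sgScramble tumors and 1119, 1119 and 1010 in the sgKrt19 tumors. The sgKrt19 tumors sat at the level of sgScramble 1 and 3, below sgScramble 2 and 4. The log2 fold change of Zeb1 was −0.32 (SE 0.168, 95% interval −0.69 to 0.06, adjusted p = 0.165 by limma), and with library size as the only scaling it was −0.53 (adjusted p = 0.0437). Genes on the opposite strand overlap 3.27% of the exon bases of Zeb2, 2.01% of those of Esrp1 and 1.93% of those of Zeb1. Their mean values were 88.3 (Zeb2os), 7.97 (Gm26663) and 16.5 (Gm10125), and whether counting used the strand is not given in the sources used here.

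Ratios of 2 members within a library do not depend on the scaling between libraries, apart from the pseudocount of 1. The log2 ratio of Cdh1 to Cdh2 was 3.48, 3.15, 3.64 and 3.22 in the sgScramble tumors and 4.55, 4.92 and 5.31 in the sgKrt19 tumors. The group means of 3.38 ± 0.227 and 4.93 ± 0.378 differ by 1.55, a 2.93-fold higher ratio, without overlap. The exact permutation test gave p = 0.0571 (two-sided), the smallest that 35 splits of 4 and 3 libraries allow, and 0.143 after adjustment over the 5 ratios. The log2 ratio of Zeb2 to Zeb1 went from −0.32 ± 0.173 to −0.84 ± 0.0385, a difference of −0.52 without overlap (exact permutation p = 0.0571, adjusted 0.143). The ratios of Cdh1 to Vim, Esrp1 to Zeb1 and Snai2 to Snai1 overlapped between the groups, with differences of 0.21, −0.90 and 0.15 and exact permutation p of 0.171, 0.571 and 0.629. The difference for Cdh1 to Vim was 0.12 without sgKrt19 5 and 0.33 without sgKrt19 8. For Cdh1 to Vim the groups stood at −1.30 ± 0.101 and −1.09 ± 0.222, both below 0. No ratio could reach the threshold in a design of this size.

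The spread between tumors inside each group differed widely among the members. On the log2 scale, the SD of Cdh1 was 0.08 in sgScramble and 0.14 in sgKrt19 tumors, and that of Vim was 0.08 and 0.09. Over all tested genes the median SD was 0.21 and 0.22. Epcam had an SD of 1.09 and 1.10, and 98.7% of tested genes had a smaller one in each group. For Esrp1 the SD was 1.20 and 2.04, larger than that of 99.0% of tested genes in sgScramble and of all but a few in sgKrt19 tumors. The highest sgScramble tumor had 4.22 times the Epcam and 5.63 times the Esrp1 of the lowest, and among sgKrt19 tumors these ratios were 3.87 and 18.8. For Cdh1 the same measure was 1.13 and 1.22. The 3 epithelial members thus split into 1 that was even within the groups and 2 that varied widely in both.

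The tumors high in Epcam were also high in Esrp1 among the controls. sgScramble 1 and 3 were high in both, and sgScramble 2 and 4 were low. In Zeb1, Zeb2, Cdh2, Snai2 and also Cdh1 the same 4 tumors stood the other way round, with 2 and 4 above 1 and 3. The margins were small in Cdh1 and Snai2, and the order does not follow the epithelial and mesenchymal sides. By a chi-square of reads over genes, the closest control pairs were likewise 2 with 4 (17.2 per degree of freedom) and 1 with 3 (25.5). The split is thus not particular to these members. Among sgKrt19 tumors, 8 was the lowest in Epcam, Esrp1 and Cdh2, while 5 was high in Epcam and low in Esrp1. The keratin Krt7 and the secretory gene Agr2, both singled out after their values were seen, were high in sgScramble 1 and 3, like Epcam. Krt7 was at 10462, 3958, 9181 and 3793 in sgScramble tumors and at 3552, 5438 and 1428 in sgKrt19 tumors. Agr2 was at 719, 215, 1608 and 209, and then at 581, 798 and 101. These are descriptions of single tumors, and no test was run on them.

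**Figure D3:**
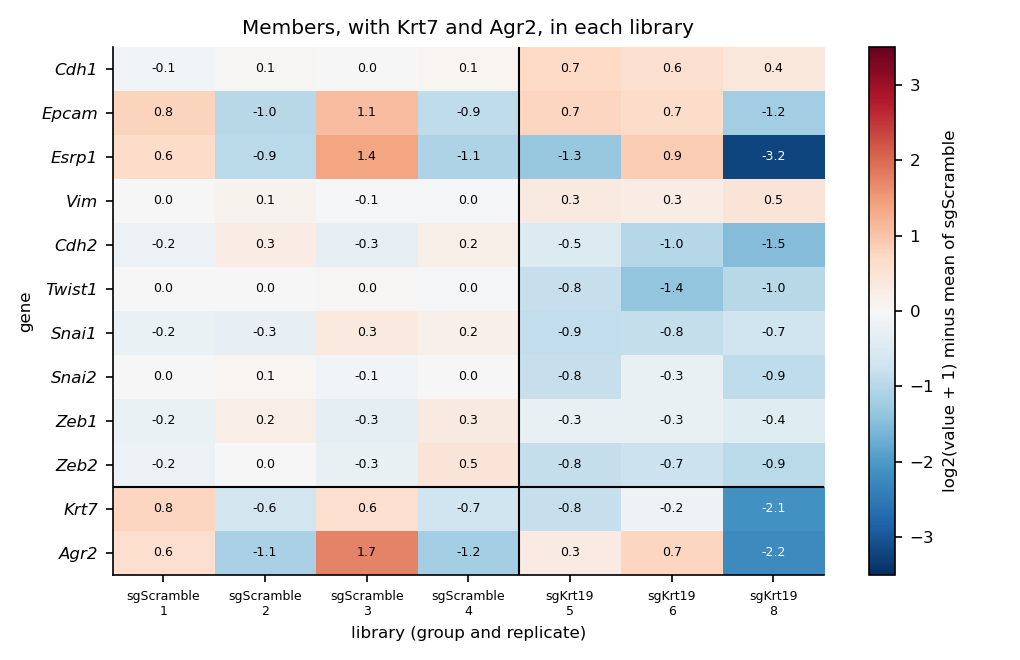
Log2(value + 1) of each gene (rows) in each tumor (columns) minus the mean of the 4 sgScramble tumors, printed in each cell and colored from blue (lower) to red (higher). The rows of Epcam, Esrp1, Krt7 and Agr2 alternate across the sgScramble tumors, with 1 and 3 above 0 and 2 and 4 below, while Cdh1, Vim and Twist1 read −0.1 to 0.1 there.

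Across the 7 tumors, and as a description only, the genes nearest in pattern to each marker were found by Pearson's r of log2 values among the 17260 genes that averaged 1 CPM or more. The 7 points share the group difference, so any gene that changes with the group scores high. Closest to Cdh1 were Efnb1 (r = 0.997), Srl (0.996), Slc29a1 (0.987), Slc46a3 (0.986) and Synpo2 (0.985). Closest to Vim were C730027H18Rik (r = 0.991), Cdc42ep2 (0.989), Gata3 (0.988), Tulp2 (0.987) and Pak1 (0.985). For Epcam, a search added after its values were seen gave 3110082I17Rik (r = 0.964), Atpaf1 (0.962), Agr2 (0.959), Gm10156 (0.958) and Krt14 (0.956). The same added search for Esrp1 gave Gosr2 (r = 0.985), Ap1m2 (0.976), Gjb2 (0.973), Zdhhc23 (0.961) and Macc1 (0.955). Between Epcam and Esrp1 r was 0.778, and between Cdh1 and Epcam it was 0.08.

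Other genes of the epithelial state were then counted, among them tight junction and desmosome components, the GRHL, OVOL and ETS factors of epithelia, and keratins. Of 48 such genes, 44 were tested, and 16 were higher and 3 lower in sgKrt19 tumors, that is 43.2% called against 34.0% of all genes. Their median log2 fold change was 0.21. It was 0.13 without sgScramble 2, 0.09 without sgScramble 4, 0.34 without sgKrt19 8 and 0.11 by edgeR on recovered reads. Scaling by library size alone gave −0.009, against −0.21 over all genes tested, with 13 called higher and 7 lower. Tmc5, a transmembrane channel-like gene, rose from 219 ± 76.5 to 1152 ± 312 (log2 fold change 2.43). Tjp3, which encodes the tight junction scaffold ZO-3, rose from 789 ± 248 to 2441 ± 660 (1.65), and Ehf, an epithelial ETS factor, from 2179 ± 145 to 6554 ± 1215 (1.57). Cdh3, which encodes P-cadherin, went the other way and fell from 1068 ± 231 to 85.2 ± 41.0 (−3.73). The desmosomal cadherin Dsc2 fell from 186 ± 80.2 to 59.7 ± 30.3 (−1.65). Plakoglobin, the product of Jup, joins adherens junctions and desmosomes, and Jup fell from 8031 ± 444 to 6191 ± 456 (−0.38). That last call was lost, with an adjusted p of 0.0502 to 0.0770, when any 1 of sgScramble 2, 3 and 4 or of sgKrt19 5 and 8 was left out.

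Mesenchymal genes other than the members were mostly lower where they were called. Of 48, 47 were tested, with 3 higher and 14 lower and a median log2 fold change of −0.30. The share called was 36.2%, near the 34.0% of all genes tested, of which 17.9% were called higher and 16.0% lower. Ncam1, a neural cell adhesion molecule, fell from 1848 ± 551 to 625 ± 205 (log2 fold change −1.57). Vcan, the proteoglycan versican, fell from 2677 ± 755 to 970 ± 246 (−1.45), and Cdh6, a cadherin of kidney and neural crest, from 4037 ± 431 to 1600 ± 453 (−1.36). Fibronectin, Fn1, named after its values were seen, fell from 82510 ± 25293 to 33423 ± 7513 (−1.28). The 3 that rose were Tpm2 (log2 fold change 1.31), which encodes a tropomyosin of muscle and contractile cells, Nt5e (0.95), the ectoenzyme CD73, and Acta2 (0.65), smooth muscle actin. Acta2 was not called without sgKrt19 5 (0.47, adjusted p = 0.0588), and without sgKrt19 8 the mesenchymal genes called were 10 in place of 17. The median of the mesenchymal genes was −0.15 without sgScramble 4, and −0.52 under scaling by library size alone.

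Markers of the other cells of the tumor are given beside these counts, since most mesenchymal genes are also made by the stroma. The numbers of markers called are to be read against all genes tested, of which 17.9% were called higher and 16.0% lower. Of 12 fibroblast markers none was called, and all but Col6a3 and Mfap5 were already counted among the mesenchymal genes. The median log2 fold change of the 12 was −0.18. It was lowest for Postn (−0.69, adjusted p = 0.0557 by limma) and highest for Thy1 (0.32, adjusted p = 0.190). The summed value of the 12 was 122223 to 280798 in sgScramble tumors, highest in sgScramble 4, and 132281 to 156301 in sgKrt19 tumors. Col1a1 was highest in sgScramble 4 as well. Among the 4 controls, Cdh1, Zeb1 and Zeb2 were highest in sgScramble 4. Vim, Cdh2 and Snai2 were highest in sgScramble 2, and Epcam, Esrp1, Snai1 and Twist1 in sgScramble 3. All 10 skeletal muscle markers rose, with a sum of 285 to 2692 in sgScramble and 19756 to 28061 in sgKrt19 tumors. Of 8 pericyte and smooth muscle markers 4 rose (4112 to 5477, against 10174 to 13060). Des, which encodes the muscle filament desmin and is made in skeletal muscle too, stood at 59.3 to 753 in sgScramble and at 4419 to 6602 in sgKrt19 tumors, and without it, a choice made after the values were seen, the sums were 4018 to 4930, against 5755 to 6458. Of 10 endothelial markers 5 rose (5373 to 7358, against 7733 to 9884). Of 8 T cell markers 7 rose (680 to 1246, against 3631 to 6668), and of 12 macrophage and monocyte markers 6 rose and 1 fell (23941 to 31240, against 33026 to 41266). Of 12 markers of pancreatic cancer epithelium 7 rose and 2 fell (121754 to 184321, against 280382 to 289214). Most of each sum came from Krt8 and Krt18, which were also counted among the epithelial genes. Krt8 stood at 46646 to 65462 in sgScramble and 95718 to 112985 in sgKrt19 tumors. Krt18 stood at 39289 to 57017 in sgScramble and 93269 to 98149 in sgKrt19 tumors. Skin keratinocyte markers were at 211 to 298 and 250 to 318, with 1 of 5 tested higher and 1 lower. Adipocyte markers (2954 to 5881, against 5575 to 6303) had 1 of 7 tested higher, and Schwann cell markers (1744 to 2352, against 1905 to 2476) had 1 of 6 higher and 1 lower. No marker was at 0 in every library. The part of these cell types in the values of the members was not tested.

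**Figure D4:**
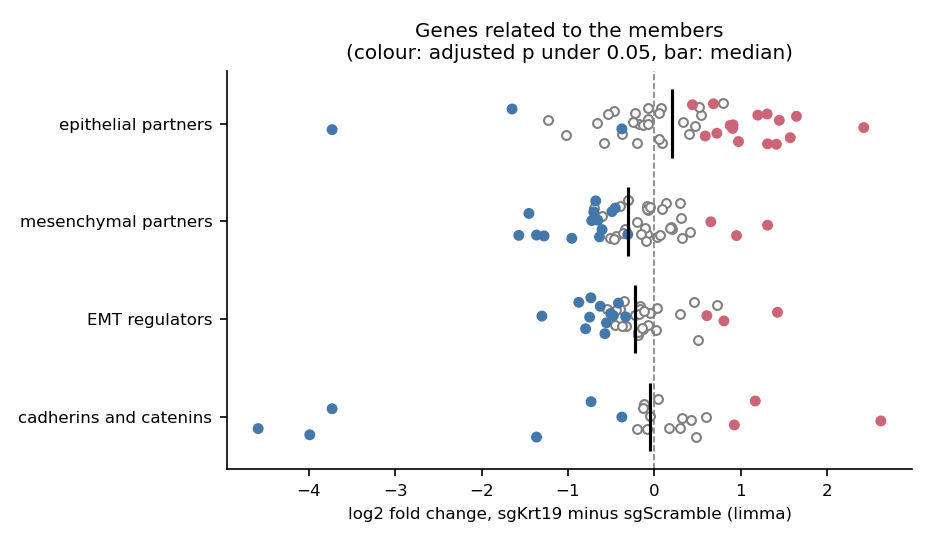
Log2 fold change (x axis, sgKrt19 minus sgScramble, limma) of each tested gene of 4 groups related to the members (rows), with red for genes called higher, blue for genes called lower, open points for genes not called and a bar for the median. Epithelial genes called lie mostly above 0 (16 higher, 3 lower), mesenchymal genes (3 and 14) and EMT regulators (3 and 12) mostly below. The EMT regulators were not sorted by whether they promote or oppose EMT. Over all genes tested, 17.9% were called higher and 16.0% lower.

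Regulators of EMT beyond the members, such as TGF-beta ligands and SMADs, ID proteins and further transcription factors, gave 39 tested genes of 46. Of these, 3 were higher and 12 lower, that is 38.5% called against 34.0% of all genes. Their median log2 fold change was −0.22. The list was not sorted by whether a gene promotes or opposes EMT, so its counts give no direction for EMT. Klf4, a factor of differentiated epithelia, rose from 1446 ± 327 to 3825 ± 185 (log2 fold change 1.43), and Id1, an inhibitor of helix-loop-helix factors and a target of BMP signaling, from 1095 ± 239 to 1896 ± 335 (0.81). Foxc1, a forkhead factor, rose from 323 ± 6.46 to 504 ± 138 (0.61), a call lost without sgScramble 2, sgScramble 4 or sgKrt19 8 (adjusted p 0.0503 to 0.0757) and under scaling by library size alone (0.149). Wwtr1, which encodes the Hippo pathway coactivator TAZ, fell from 4885 ± 325 to 2822 ± 336 (−0.80). Tbx3 fell from 134 ± 48.3 to 69.7 ± 5.35 (−0.87), but was not called without sgScramble 3 or 4 or without any sgKrt19 tumor (adjusted p 0.0549 to 0.0834). Prrx1, a homeobox gene of mesenchyme, fell from 1265 ± 173 to 756 ± 51.8 (−0.74). The ligand genes Tgfb1, Tgfb2 and Tgfb3 were not called, with log2 fold changes of 0.03, −0.54 and −0.36. Of the microRNA genes that act against the ZEB factors, Mir200a was at 0 and Mir429 at 1.05 or less in every library, under the floor of 3 reads. Mir200b, Mir200c and Mir141 were looked up and not found under these names among the 38026 genes. How far these libraries capture microRNAs was not tested. With library size as the only scaling, 24 of these regulators were called, 2 higher and 22 lower, with a median of −0.43, and without sgScramble 1 the median was −0.34.

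Cadherins and the proteins they bind formed the last group, which is not separate from those above. Cdh3 and Jup were also counted among the epithelial genes, and Cdh6 and Cdh11 among the mesenchymal genes. Of 29 genes other than Cdh1 and Cdh2, 21 were tested. Of these, 3 were higher and 6 lower, that is 42.9% called against 34.0% of all genes. The median log2 fold change was −0.05. It was 0.04 without sgScramble 3, 0.03 without sgScramble 4 and 0.07 without sgKrt19 8, and −0.27 under scaling by library size alone. Beside Cdh3, the changes of largest size were those of Cdh10, which fell from 825 ± 97.4 to 35.3 ± 15.0 (log2 fold change −4.59), and Cdh16, a cadherin of kidney epithelium, which fell from 586 ± 251 to 40.3 ± 27.9 (−3.99). Cdh17, the cadherin of liver and intestine, rose from 2264 ± 547 to 4286 ± 985 (0.93). The other two called higher, Ctnnd2 and the muscle cadherin Cdh15, had values of 62.4 or less in every tumor. The catenins that link E-cadherin to the cytoskeleton were not called, with log2 fold changes of 0.04 for Ctnna1 (SE 0.115), −0.05 for Ctnnb1 (SE 0.129) and −0.12 for Ctnnd1 (SE 0.156). For Cdh5, the cadherin of endothelium, the log2 fold change was 0.42 (adjusted p = 0.0930).

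**Figure D5:**
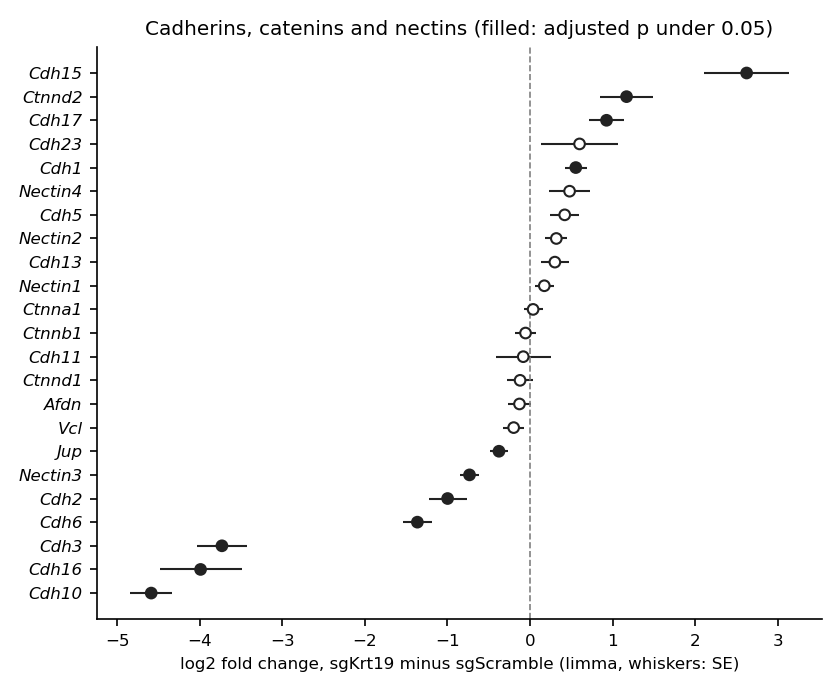
Log2 fold change (x axis, sgKrt19 minus sgScramble, limma) of the tested cadherins, catenins, nectins and their partners, Cdh1 and Cdh2 included (y axis, sorted), with lines for ± 1 SE and filled points for an adjusted p under 0.05. Cdh1 lies on the higher side at 0.55 and Cdh2 on the lower at −0.998, with Cdh3, Cdh16 and Cdh10 farthest below and the catenins Ctnna1, Ctnnb1 and Ctnnd1 near 0.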

How the data were processed

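Bulk RNA was sequenced from 4 sgScramble and 3 sgKrt19 subcutaneous tumors, grouped by GEO's labels, which give no sequencing date or library batch. The study's methods name a stranded total RNA kit with 4 µg of RNA per library, 12 PCR cycles and single reads of 76 bases, and the labels name polyA RNA. The submitters' processing notes name mm10. The aligner, counting program and their versions are not given in the sources used here. Nothing says that the tumors of a group came from separate cultures, so p-values measure the spread between these tumors.

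The deposited values are a signal: the authors divided the reads per gene by a size factor for each library. Since 1 read is worth 0.913 to 1.16 in a library, whole reads could be recovered for 100% of values within a tolerance of 0.1 read. A floor of 3 reads equals a value of 2.74 to 3.47 and covers counting error only. Replicates of a group differed by more than sampling noise, with a chi-square per degree of freedom of 17.2 to 74.2.

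Because the table holds normalized values, limma 3.58.1 in R 4.3.3 was the main test (lmFit, then eBayes with a trend, on log2(value + 1), two-sided). Genes entered if 3 or more libraries had a value of 10 or higher, and p-values were adjusted by Benjamini-Hochberg over all of them, with a threshold of 0.05. The pseudocount of 1 by itself makes the fold changes of low genes smaller. The script was tested on simulated data with known changes. Alternatives were other pseudocounts, filters and scalings, limma without a trend, edgeR 4.0.16 and DESeq2 1.42.0 on recovered reads, and each library left out. Of 38026 gene identifiers 37167 (97.74%) have the same version in GENCODE M21 of GRCm38, which gave positions and exon lengths. Zeb2 was matched without its version.

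The members and the gene lists were chosen with earlier results of these data known. From each list the text names the 3 called genes with the largest change each way, among those that average 1 CPM or more and whose groups do not overlap, and it gives marker lists by counts and ranges. A gene that this rule would name is not reported here. Prrx1, Fn1, Esrp2, Twist2, Snai3, the TGF-beta ligands, the catenins, Cdh5, Krt7 and Agr2 were named outside this rule, after their values were seen. So were Postn, Thy1, Krt1, Krt10 and Krt15.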

Additional observations from a re-analysis of the deposited data

Results flagged for a closer look

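The summed value of the 10 skeletal muscle markers was 2692 in sgScramble 3, against 285 to 321 in the other 3 sgScramble tumors. Its gap to the nearest of them was 0.985 of the whole range of the group, above the critical share of Dixon's test for 4 samples. Chance alone flags about 1 in 20 such groups, and 25 sets of values were searched. None of the 10 members was flagged in the sgScramble group, and the sgKrt19 group of 3 was too small to be searched.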

How the results depend on the processing

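Cdh1, Cdh2, Zeb2, Snai1 and Twist1 kept their direction and their call under all 16 alternatives run, with log2 fold changes of 0.34 to 0.63 for Cdh1, −1.26 to −0.73 for Cdh2, −1.06 to −0.69 for Zeb2, −1.01 to −0.68 for Snai1 and −1.27 to −0.90 for Twist1. With each library left out in turn, Snai2 ranged from −0.84 to −0.53, Epcam from −0.28 to 0.70, the ratio of Esrp1 to Zeb1 from −1.93 to 0.04 and that of Snai2 to Snai1 from −0.06 to 0.31. The last 2 turned sign without sgKrt19 8 (0.0412) and without sgKrt19 6 (−0.0602). Epcam turned sign with library size only (−0.15), edgeR (−0.017) and DESeq2 (−0.0098), and without sgScramble 2 (−0.26), sgScramble 4 (−0.23), sgKrt19 5 (−0.28) or sgKrt19 6 (−0.23). Vim was called at 0.35 without a trend (adjusted p = 0.0495) and at 0.34 by DESeq2 (adjusted p = 0.00618), and Zeb1 at −0.53 with library size only (adjusted p = 0.0437). Library size only gave 2187 genes higher and 5705 lower, in place of 3820 and 3420, so that 27.7% of calls were higher in place of 52.8%, and 24 EMT regulators called in place of 15. With each library left out, genes called lower ranged from 2257 (without sgScramble 2) to 3637, genes called in all from 4886 to 7739, and mesenchymal genes called from 10 (without sgKrt19 8) to 18. Fewer samples enter these fits; the cause of the other changes was not tested. edgeR called 3689 genes higher and 3499 lower, and DESeq2 4109 and 3862. No paired analysis was possible because the groups share no replicate number. Depth limits Esrp1 above all, with 8 reads in sgKrt19 8.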
